A study of Mus musculus with 12 samples.

Results

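The genes of cholesterol and fatty acid synthesis, with those that control them and those that move sterols, were followed through 12 libraries of cultured mouse colon fibroblasts. They are 40 genes of the 23106 in the expression table, taken by gene symbol: 7 of the mevalonate pathway, 11 of the steps that lead to squalene and on to cholesterol, 9 of fatty acid synthesis, desaturation and activation, 5 of the sterol sensor, and 8 of the sterol-export programme and intracellular sterol transport. All 40 were found in the table, and 38 passed the filter, a 12-library mean of at least 10, and were tested. The untested 2, Nr1h3 and Abcg1, are given as reads.

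The libraries form 3 groups of 4. Sox2-guide libraries are labelled Prkcz-/- sgSox2, knockout-labelled libraries Prkcz-/- sgScr and WT-labelled libraries WT sgScr. Prkcz encodes the atypical protein kinase C zeta, Sox2 a transcription factor of stem cells, and sgScr, the guide of the other 2 groups, is not spelled out in the labels. All 3 groups share the strain C57BL/6, an age of 12 weeks, the colon as source, medium with 10% fetal bovine serum and no treatment, with harvest 24 h after plating. The sources used here do not give how the guides were delivered, how Prkcz was deleted or whether a group is 1 clone. The series calls its replicates biological but does not say that they came from separate animals or dishes, so each p-value speaks only of library-to-library spread, which may be technical.

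Cells make cholesterol from acetyl-CoA through mevalonate, isoprenoids, squalene and lanosterol, and fatty acids from acetyl-CoA through malonyl-CoA. When sterols in the endoplasmic reticulum are low, the escort protein SCAP carries the SREBP transcription factors to the Golgi, where they are cut and released to switch on the enzymes, and INSIG proteins hold SCAP back when sterols are plentiful. When sterols are high, oxysterols activate the liver X receptors (LXRs), which raise export pumps such as ABCA1. In fibroblasts the pathway supplies membrane lipid, and serum in the medium is an outside source of cholesterol.

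Values are normalised reads: reads of a gene scaled so that each library sums to 10000000, where each read comes from the 3' end of a messenger RNA. Depth was 2668455 to 5201368 reads per library. A log2 change is a difference of log2(value + 1) between groups, with its standard error (SE), and a gene is called where limma gave a Benjamini-Hochberg adjusted p under 0.05 over all 12676 genes tested. Prkcz went against the labels: 54 reads were found with the Sox2 guide and 32 in the knockout-labelled group, but 0 in the WT-labelled group. With 3 reads per group as the floor for that 0, it was at least 13.4-fold and 8.92-fold higher in them. That floor covers counting error only, since reads made by PCR are not independent molecules. A 3' tag outside the deleted part checks nothing, so groups are named by their labels, and every direction below is one between labels. Sox2 had 0 reads with its guide, 1347 ± 76.4 normalised reads in the knockout-labelled libraries and 1.72 ± 1.995 in the WT-labelled libraries (SD, n = 4), so that it was at least 733-fold lower with its guide than in the knockout-labelled libraries.

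Sox2-guide replicate 1 stood apart from the rest of its group, with 4.29% of reads from mitochondrial genes against 9.39% to 10.3% in the other 3. Malat1, a nuclear noncoding RNA, took 0.505 ± 0.127% of reads in the Sox2-guide libraries, 1.42 ± 0.0602% in the knockout-labelled libraries and 0.472 ± 0.0542% in the WT-labelled libraries. Cytosolic ribosomal protein genes took 4.61 ± 0.746%, 2.27 ± 0.108% and 3.92 ± 0.0674% in the same order (SD, n = 4 each). Of 8 fibroblast markers 7 had a mean of at least 10, with a summed level of 50959 to 57482 normalised reads in the Sox2-guide, 95891 to 98107 in the knockout-labelled and 41979 to 45830.2 in the WT-labelled libraries. Col1a1 carries most of that difference, with 11494 ± 1790 in the Sox2-guide, 57381 ± 2860 in the knockout-labelled and 5829 ± 297 in the WT-labelled libraries, while Dcn had 31.5 ± 13.3, 55.3 ± 20.4 and 1374 ± 93.8. Pdgfra had 40.9 ± 5.94, 1448 ± 281 and 249 ± 32.6 in the same order, and Pdgfrb 621 ± 102, 1521 ± 156 and 260 ± 48.7. Vim was lowest in the knockout-labelled libraries, with 21466 ± 1546, 14820 ± 1098 and 18846 ± 512. Lum, an 8th marker, was too low to test, with 0, 1 and 8 reads over the Sox2-guide, knockout-labelled and WT-labelled groups. The 3 adipocyte markers analysed (Fabp4, Pparg and Plin4) summed to 22.5 to 59.6, 6.47 to 23.3 and 19.5 to 35.9 in the same order, and Fabp4 was at 0 in the knockout-labelled libraries. Plin4, the only adipocyte marker tested, averaged 35.1 ± 17.1, 5.58 ± 2.47 and 1.63 ± 1.89, from 60, 8 and 2 reads. It was called higher with the guide than in the knockout-labelled (log2 change 2.41) and WT-labelled libraries (4.003). Plin4 was also called higher in the knockout-labelled than in the WT-labelled libraries (1.596), where the groups overlap. Smooth muscle markers summed to 12.3 to 20.03, 899.6 to 933 and 137 to 144, epithelial markers to 2.23 to 9.61, 0 to 6.26 and 39.7 to 59.1, and endothelial markers to 90.4 to 116, 20.3 to 26.2 and 23.9 to 42.7. Most of the smooth muscle sum in the knockout-labelled libraries is Lmod1 (654 ± 23.4) and Synpo2 (157 ± 18.6), while Actg2 averaged 42.7 ± 3.91 there and 68.4 ± 24.9 in the WT-labelled libraries. Of the endothelial sum with the guide Kdr held 96.9 ± 12.1, and Cdh5 was at 0 in both Prkcz-/- labelled groups, against 18.2 ± 4.92 in the WT-labelled libraries. Immune markers summed to 33.7 to 53.8, 28.2 to 61.5 and 23.0 to 39.0, and enteric glial markers to 13.3 to 22.5, 12.2 to 31.3 and 13.0 to 29.6. Within the immune sum 2 markers went opposite ways: Cd68 averaged 35.9 ± 10.6, 9.54 ± 6.10 and 25.4 ± 5.02, and Csf1r 7.04 ± 3.89, 34.3 ± 10.4 and 3.27 ± 2.66. The epithelial marker Krt20, the macrophage marker Adgre1 and the mesothelial marker Lrrn4 were at 0 in all 12 libraries, and Msln, the only mesothelial marker with a mean of at least 10, had 284 to 479 normalised reads with the guide, 0 to 3.13 in the knockout-labelled and 1042 to 1174 in the WT-labelled libraries. The part of these measures in the results below was not tested. In bulk libraries, fewer cells of a type and less RNA per cell cannot be told apart.

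Start regions of 8 genes are shown because they belong to genes the results turn on: 4 enzymes that were higher with the Sox2 guide than in the knockout-labelled libraries, 3 sensor genes that differ in their pattern, and the export pump that was lower. They were picked after their values were seen. Each runs from 250 bases before to 50 bases after the RefSeq start on GRCm38.p6, 5′ to 3′ on the gene's own strand. Capitals mark 2 motifs on either strand: the 10-letter sterol regulatory element SRE-1 with at most 1 mismatch, and CCAAT, which reads ATTGG on the other strand. The windows are chr13:119690101-119690400 on the + strand for Hmgcs1, chr8:64733529-64733828 on the - strand for Msmo1, chrX:72918271-72918570 on the + strand for Nsdhl and chr11:120824498-120824797 on the - strand for Fasn. For the sensor genes they are chr5:28071162-28071461 on the + strand for Insig1, chr1:121332540-121332839 on the - strand for Insig2 (the one of its 3 windows nearest the annotated outer start) and chr15:82147019-82147318 on the + strand for Srebf2, and for the pump Abca1 chr4:53159846-53160145 on the - strand.
Hmgcs1: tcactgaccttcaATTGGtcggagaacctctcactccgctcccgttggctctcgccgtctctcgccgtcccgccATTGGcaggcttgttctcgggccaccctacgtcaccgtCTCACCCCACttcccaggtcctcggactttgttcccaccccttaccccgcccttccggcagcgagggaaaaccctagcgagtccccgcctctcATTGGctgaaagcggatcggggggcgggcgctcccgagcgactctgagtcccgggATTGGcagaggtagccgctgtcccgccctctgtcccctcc
Msmo1: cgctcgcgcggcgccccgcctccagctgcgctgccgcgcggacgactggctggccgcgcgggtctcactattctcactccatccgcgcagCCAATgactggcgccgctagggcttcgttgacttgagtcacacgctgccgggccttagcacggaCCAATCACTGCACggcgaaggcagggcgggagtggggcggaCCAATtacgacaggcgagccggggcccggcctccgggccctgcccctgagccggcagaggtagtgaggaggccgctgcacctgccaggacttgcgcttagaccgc
Nsdhl: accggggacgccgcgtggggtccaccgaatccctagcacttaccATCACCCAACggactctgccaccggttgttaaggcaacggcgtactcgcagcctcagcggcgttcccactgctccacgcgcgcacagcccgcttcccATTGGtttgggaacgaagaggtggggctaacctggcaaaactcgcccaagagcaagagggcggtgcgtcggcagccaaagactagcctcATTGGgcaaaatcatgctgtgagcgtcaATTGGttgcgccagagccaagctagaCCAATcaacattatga
Fasn: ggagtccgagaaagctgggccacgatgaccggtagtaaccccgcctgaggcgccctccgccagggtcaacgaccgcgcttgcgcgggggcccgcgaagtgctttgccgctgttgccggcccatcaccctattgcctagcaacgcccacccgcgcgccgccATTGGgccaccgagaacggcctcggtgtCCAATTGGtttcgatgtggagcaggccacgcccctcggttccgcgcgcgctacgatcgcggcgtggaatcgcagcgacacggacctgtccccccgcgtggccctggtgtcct
Insig1: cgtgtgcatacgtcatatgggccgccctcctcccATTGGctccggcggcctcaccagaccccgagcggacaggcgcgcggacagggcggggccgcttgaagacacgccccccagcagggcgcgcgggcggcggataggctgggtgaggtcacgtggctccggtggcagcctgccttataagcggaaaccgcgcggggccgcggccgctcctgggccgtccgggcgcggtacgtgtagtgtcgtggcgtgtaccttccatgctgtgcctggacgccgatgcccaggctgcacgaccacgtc
Insig2: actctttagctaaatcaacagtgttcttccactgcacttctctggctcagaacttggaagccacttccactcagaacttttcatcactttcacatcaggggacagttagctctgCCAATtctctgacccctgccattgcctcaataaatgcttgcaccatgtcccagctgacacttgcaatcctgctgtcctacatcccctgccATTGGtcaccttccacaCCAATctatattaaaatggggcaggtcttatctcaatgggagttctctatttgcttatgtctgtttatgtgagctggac
Srebf2: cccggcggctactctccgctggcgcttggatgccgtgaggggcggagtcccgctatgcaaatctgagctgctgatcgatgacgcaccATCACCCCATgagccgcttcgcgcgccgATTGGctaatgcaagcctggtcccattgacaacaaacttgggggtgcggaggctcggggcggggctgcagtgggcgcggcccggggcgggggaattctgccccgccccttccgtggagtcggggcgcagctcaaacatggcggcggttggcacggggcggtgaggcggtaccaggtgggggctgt
Abca1: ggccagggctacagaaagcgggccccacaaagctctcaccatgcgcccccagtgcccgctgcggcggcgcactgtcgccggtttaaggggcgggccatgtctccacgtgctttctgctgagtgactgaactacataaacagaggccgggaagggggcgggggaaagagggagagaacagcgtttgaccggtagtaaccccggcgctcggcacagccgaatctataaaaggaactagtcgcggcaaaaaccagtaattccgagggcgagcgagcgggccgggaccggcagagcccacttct

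Of the 40 genes 31 had a RefSeq window. The SRE-1 motif as searched, with its free base and at most 1 mismatch, was found in 5 of these 31, Hmgcs1, Msmo1, Nsdhl, Acly and Srebf2. The same search found it in 5.34% of all 32851 windows of the same length. All 5 were among the 20 genes with a window that were higher with the Sox2 guide than in the knockout-labelled libraries, and none of the other 11 held it. Beside 5.34% of all windows, 0 of 11 is near the background and is no result about those 11 genes. Counted from 0 at the first transcribed base, the match lay at -138 to -129 in Hmgcs1, -93 to -84 in Msmo1, where it overlaps a CCAAT, -206 to -197 in Nsdhl and -163 to -154 in Srebf2. CCAAT was found in 23 of 31 windows, 16 of 20 and 7 of 11 in the same split, against 37.4% of all windows. GGGCGG, the GC box bound by Sp1, was in 25 of 31 and in 35.7% of all windows, and the E-box CACGTG in 6 of 31 and 7.15%. A fixed, idealised form of the direct repeat bound by LXRs, with at most 1 mismatch, was in 0 of 31 and in 0.25% of all. Looser forms of the repeat were not searched for, in the Abca1 window or any other. The 0 is therefore no result about LXR sites in these windows. A match is a description of the letters, and a window without one says nothing about the factor.

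With the Sox2 guide nearly the whole biosynthetic set stood higher than in the knockout-labelled libraries. Of the 38 genes tested 27 were higher and 3 lower, and 8 were not called. The 18 sterol enzymes together held 19055 ± 1287 normalised reads in the Sox2-guide libraries and 7217 ± 347 in the knockout-labelled libraries, and the 9 fatty acid genes 20769.9 ± 1512 and 8191 ± 410 (SD, n = 4). Across all genes tested 60.7% were called in this comparison, 30.5% higher and 30.2% lower, so the count of higher genes is above the background share and the count of lower genes below it. The median log2 change was 1.11 over the 38 genes and -0.01 over all genes tested. The 2 groups did not overlap for 29 of the 38, against 53.6% of all genes tested.

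Between the knockout-labelled and WT-labelled libraries most of the called genes were lower. Of the 38 genes 7 were higher and 20 lower, and 11 were not called, where 67% of all genes tested were called, 37.6% higher and 29.4% lower. The median log2 change was -0.31 over the 38 genes and 0.12 over all genes tested. The groups did not overlap for 27 of the 38, which is near the 66% of all and no result about the set. The total called was near its background share too. The split by direction was not, with 18.4% of the set higher and 52.6% lower. Sterol enzymes summed to 7217 ± 347 normalised reads in the knockout-labelled libraries and 9862 ± 381 in the WT-labelled libraries, and fatty acid genes to 8191 ± 410 and 14193 ± 418. The export and transport genes summed to 8332 ± 496 in the knockout-labelled and 3308 ± 92.5 in the WT-labelled libraries, of which Npc2 alone held 7003 ± 559.9 and 2036 ± 121 (SD, n = 4).

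Sox2-guide libraries also stood above WT-labelled ones for most of the set. Here 27 genes were higher and 4 lower, and 7 were not called, against 52% of all genes tested called, 30.1% higher and 22% lower. The median log2 change was 0.68 over the 38 genes and 0.08 over all genes tested, and 28 did not overlap, against 46.6% of all. The 3 comparisons share libraries in pairs, so their values are given side by side and not as independent results. Without Sox2-guide replicate 1 the counts were 26 higher and 4 lower against the knockout-labelled libraries, 28 higher and 5 lower against the WT-labelled libraries, and 7 higher and 22 lower between the knockout-labelled and WT-labelled libraries. In the comparison of Sox2-guide with knockout-labelled libraries Srebf1 then lost its call (log2 change 0.88, adjusted p = 0.051) and the receptor gene Nr1h2 gained one (-0.55, adjusted p = 0.022). The single genes that changed side against the WT-labelled libraries are named below with their role.

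**Figure D1:**
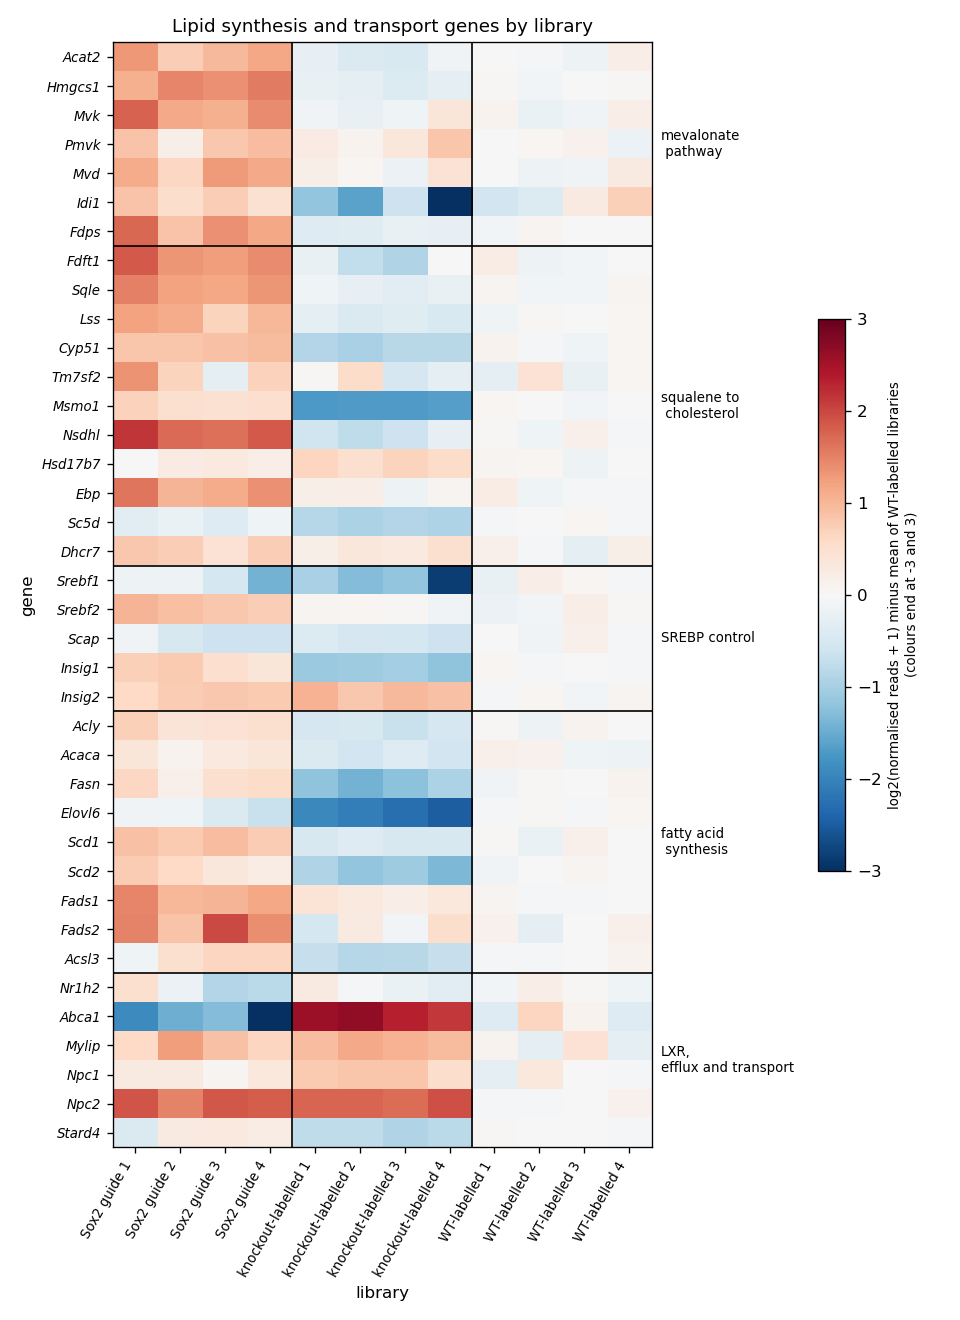
Level of the 38 tested genes in each of the 12 libraries, as log2(normalised reads + 1) minus the mean of the 4 WT-labelled libraries; rows are genes in blocks by role, columns are libraries by group, red is above and blue below that mean. Most enzyme rows are red in the 4 Sox2-guide columns and blue or pale in the 4 knockout-labelled ones, while Abca1 has the opposite colours.

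**Figure D2:**
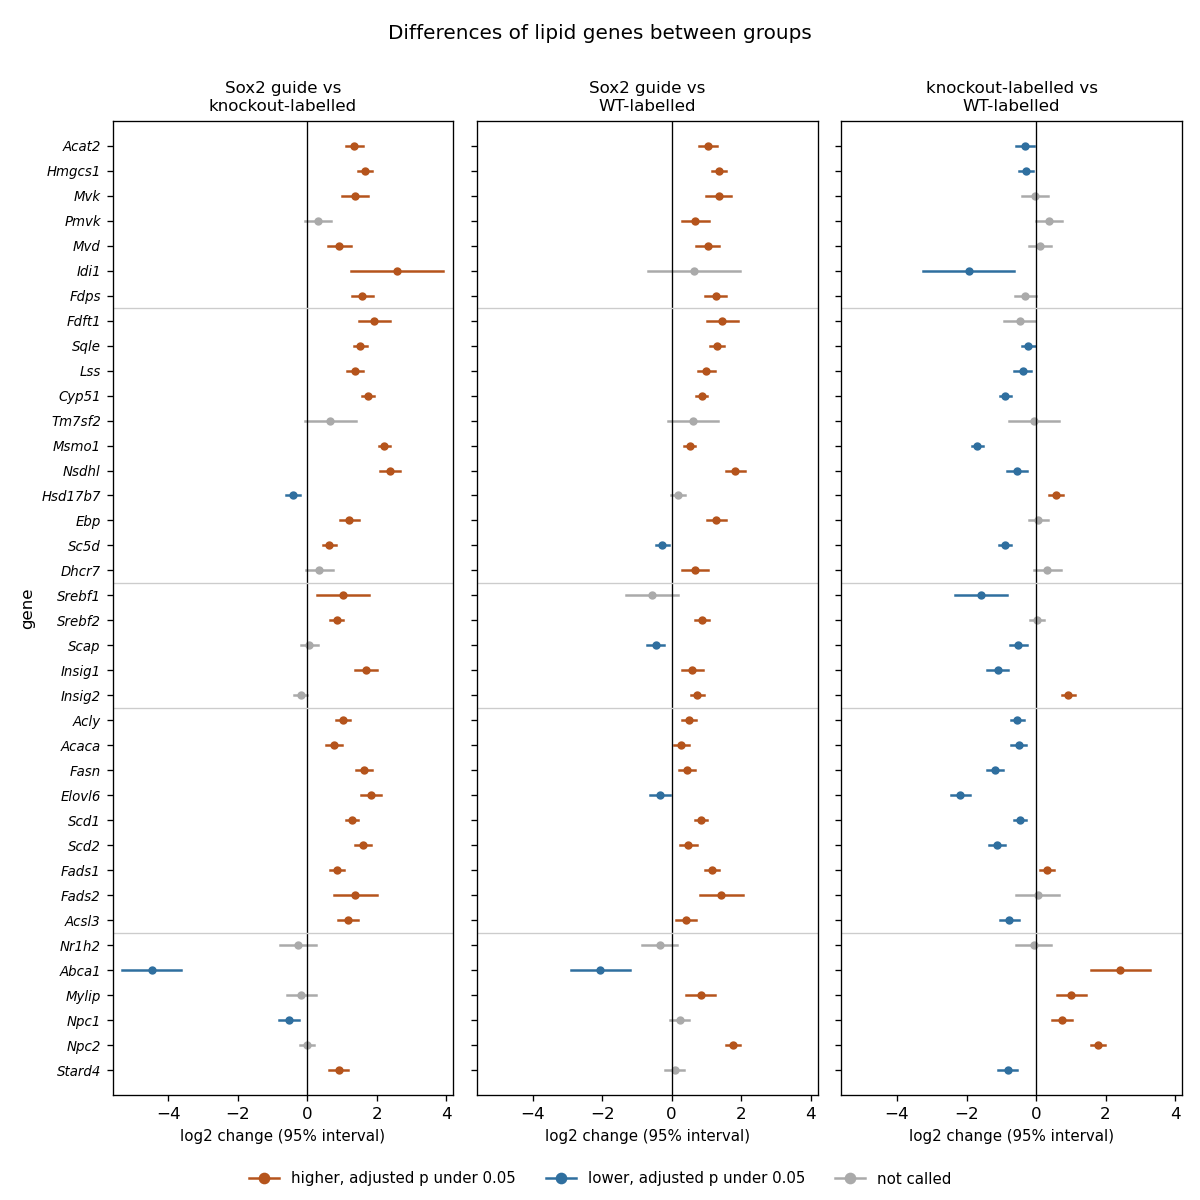
Log2 change of each tested gene in the 3 comparisons, with its 95% interval as a bar; orange points were called higher, blue lower, grey not called. In the Sox2-guide against knockout-labelled panel 27 points are orange and 3 blue (Hsd17b7, Abca1 and Npc1), and in the knockout-labelled against WT-labelled panel 7 are orange and 20 blue.

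The mevalonate pathway makes the isoprenoid units of all sterols. With the Sox2 guide 6 of its 7 genes were higher than in the knockout-labelled libraries and none lower. Hmgcs1 (ENSMUSG00000093930, GRCm38 chromosome 13, 119690379 to 119708260, + strand), the cytosolic HMG-CoA synthase that commits acetyl units to the pathway, had 2226, 2944, 2728 and 3122 normalised reads in the Sox2-guide libraries, 911, 863, 795 and 883 in the knockout-labelled and 1081, 1004, 1065 and 1081 in the WT-labelled libraries. The groups did not overlap in any pair. The log2 change was 1.66 ± 0.10 (SE, adjusted p = 2.9e-10) with the Sox2 guide against the knockout-labelled libraries, -0.29 ± 0.10 (adjusted p = 0.012) between the knockout-labelled and WT-labelled, and 1.37 ± 0.10 (adjusted p = 5.9e-09) between the Sox2-guide and WT-labelled.

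Fdps (ENSMUSG00000059743, chromosome 3, 89093588 to 89101959, - strand), farnesyl diphosphate synthase at the branch to sterols, had 1080.5, 599, 854 and 731 normalised reads with the Sox2 guide, 250.02, 254, 282 and 275 in the knockout-labelled and 308, 350.3, 332 and 325 in the WT-labelled libraries. Every Sox2-guide value exceeded all others, and the knockout-labelled values lay just below the WT-labelled ones. It was higher by log2 1.59 ± 0.14 with the Sox2 guide than in the knockout-labelled libraries (adjusted p = 6.5e-08) and by 1.28 ± 0.14 than in the WT-labelled (adjusted p = 1.5e-06), while -0.31 ± 0.14 between the knockout-labelled and WT-labelled libraries was not called (adjusted p = 0.063). This last difference passed under 9 other settings, at -0.44 to -0.31. Mvk (ENSMUSG00000041939, chromosome 5, 114444269 to 114460591, + strand), mevalonate kinase, had 531, 343, 322 and 415 with the guide, 142, 131, 141 and 197 in the knockout-labelled and 166, 134, 144 and 177 in the WT-labelled libraries. The last 2 groups overlap (log2 change -0.03, interval -0.40 to 0.34), and the Sox2-guide values lie above both (1.38 ± 0.18, adjusted p = 3.8e-06, and 1.35 ± 0.18, adjusted p = 7.8e-06).

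Acat2, which joins acetyl units and has the close copy Acat3, averaged 1693 ± 282 normalised reads with the Sox2 guide, 655 ± 75.8 in the knockout-labelled and 814 ± 83.9 in the WT-labelled libraries (SD, n = 4). Its log2 change was 1.36 ± 0.12 against the knockout-labelled libraries (adjusted p = 6.1e-08). The lower level in the knockout-labelled than in the WT-labelled libraries (-0.31, adjusted p = 0.030) ended without WT-labelled replicate 1 (-0.31, adjusted p = 0.056) or 4 (-0.25, 0.10) and without knockout-labelled replicate 2 (-0.28, 0.084) or 3 (-0.27, 0.092). Mvd, mevalonate diphosphate decarboxylase, was higher by log2 0.92 and 1.04 with the guide than in the knockout-labelled and WT-labelled libraries. Pmvk, phosphomevalonate kinase, was called only with the guide against the WT-labelled libraries (0.68 ± 0.18, adjusted p = 0.0043). Against the knockout-labelled libraries it averaged 309 ± 65.8 with the guide and 249 ± 58.2 (0.31, interval -0.07 to 0.69), and it passed without Sox2-guide replicate 2 (0.48, adjusted p = 0.018) or knockout-labelled replicate 4 (0.46, 0.032), and with array weights (0.43, 0.024). Between knockout-labelled and WT-labelled libraries it passed without knockout-labelled replicate 2 (0.47, 0.042) or Sox2-guide replicate 2 (0.38, 0.035), and with only the 2 groups in the fit (0.38, 0.040). Idi1, the isomerase that interconverts isoprenoid units, was low, with 52, 10 and 26 reads over the Sox2-guide, knockout-labelled and WT-labelled groups. It was called at 2.59 ± 0.62 (adjusted p = 0.0018) with the guide against the knockout-labelled libraries and at -1.94 ± 0.62 (adjusted p = 0.011) between knockout-labelled and WT-labelled. This last value was -1.13 (0.020) without knockout-labelled replicate 4, which had 0 reads, and -1.24 (0.0046) with a pseudocount of 5.

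From squalene to cholesterol 8 of 11 genes were higher and 1 lower with the Sox2 guide than in the knockout-labelled libraries. Msmo1 (ENSMUSG00000031604, chromosome 8, 64718139 to 64733792, - strand), the methyl sterol oxidase that starts removal of the methyl groups of lanosterol's products, had 2539.7, 2199, 2166 and 2233 normalised reads with the guide, 482, 484, 488 and 505 in the knockout-labelled and 1649, 1589, 1490.5 and 1607 in the WT-labelled libraries. The knockout-labelled libraries are low and tight, and no pair of groups overlaps. The log2 change was 2.22 ± 0.08 (SE, adjusted p = 5.0e-13) with the guide against the knockout-labelled libraries, -1.69 ± 0.08 (adjusted p = 8.3e-12) between knockout-labelled and WT-labelled, and 0.53 ± 0.08 (adjusted p = 2.3e-05) with the guide against the WT-labelled.

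Nsdhl (ENSMUSG00000031349, chromosome X, 72918557 to 72958514, + strand), the dehydrogenase of the next step, had 1328, 966, 933 and 1077 with the guide, 195, 175, 194 and 252 in the knockout-labelled and 305, 274, 329 and 286 in the WT-labelled libraries. Here the Sox2-guide libraries stood far above both other groups, which do not overlap each other either. The log2 changes were 2.39 ± 0.13 (adjusted p = 2.0e-10), -0.56 ± 0.13 (adjusted p = 0.0015) and 1.83 ± 0.13 (adjusted p = 1.0e-08) in the same order of comparisons. The third step, the ketoreductase Hsd17b7, did the reverse: it averaged 622 ± 57.7 with the guide, 821 ± 48.2 in the knockout-labelled and 547 ± 39.7 in the WT-labelled libraries (SD, n = 4). It was lower with the guide than in the knockout-labelled libraries (-0.40 ± 0.09, adjusted p = 0.0016) and higher in these than in the WT-labelled (0.59 ± 0.09, adjusted p = 4.1e-05). Between Sox2-guide and WT-labelled libraries it was called only without Sox2-guide replicate 1 among the left-out libraries (0.25, adjusted p = 0.017, against 0.18, 0.12 with all), and with array weights (0.23, 0.028).

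Sc5d (ENSMUSG00000032018, chromosome 9, 42251595 to 42264256, - strand), a late desaturase of the sterol ring, had 767, 828, 731 and 877 with the guide, 526, 499, 519 and 502 in the knockout-labelled and 935, 968, 994 and 936 in the WT-labelled libraries. The guide libraries lie between the others with no overlap, higher than the knockout-labelled (0.64 ± 0.08, adjusted p = 4.1e-06) and lower than the WT-labelled (-0.26 ± 0.08, adjusted p = 0.013). Between knockout-labelled and WT-labelled libraries the change was -0.90 ± 0.08 (adjusted p = 5.7e-08). Fdft1 (ENSMUSG00000021273, chromosome 14, 63145150 to 63179578, - strand), squalene synthase, had 321, 223, 214 and 237 with the guide, 75.2, 52.5, 46.9 and 87.4 in the knockout-labelled and 104, 79.4, 83.8 and 88.7 in the WT-labelled libraries. The guide libraries are all above the rest (1.93 ± 0.21, adjusted p = 6.8e-07, and 1.46 ± 0.21, adjusted p = 2.4e-05), and the other 2 groups overlap (-0.47 ± 0.21, adjusted p = 0.057). That last difference was called without knockout-labelled replicate 1 (-0.55, adjusted p = 0.045) or 4 (-0.63, 0.016) or Sox2-guide replicate 1 (-0.47, 0.044). It was also called with TMM (-0.58, 0.020) and quantile scaling (-0.88, 0.0022), with array weights (-0.55, 0.010) and without mitochondrial genes and Gm42418 (-0.49, 0.045). Fdft1 shares 774 exon bases with Ctsb on the other strand, whose own log2 change with the guide was 0.44, and the counting is not stated to use strand, so its values are uncertain.

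Among the other enzymes, the squalene epoxidase Sqle averaged 2387 ± 267, 825 ± 45.8 and 963 ± 66.2 normalised reads in the Sox2-guide, knockout-labelled and WT-labelled libraries (SD, n = 4), a log2 change of 1.53 with the guide against the knockout-labelled libraries. Its lower level in the knockout-labelled than in the WT-labelled libraries (-0.22, adjusted p = 0.036) ended without WT-labelled replicate 1 (-0.20, adjusted p = 0.095) or 4 (-0.19, 0.10) and without knockout-labelled replicate 2 (-0.22, 0.070), 3 (-0.19, 0.10) or 4 (-0.22, 0.057), and with no filter on low values (-0.22, 0.060). Lss, lanosterol synthase, was higher by 1.38 with the guide and lower by -0.38 in the knockout-labelled than in the WT-labelled libraries. Cyp51, the lanosterol demethylase, averaged 2894 ± 115, 859.6 ± 39.4 and 1585 ± 119, with log2 changes of 1.75 and -0.88 in those comparisons, and shares 166 exon bases with Akap9 on the other strand (0.16 and 0.03, not called). Ebp, the sterol isomerase, was higher by 1.21 with the guide, and its 0.07 between knockout-labelled and WT-labelled libraries was not called (interval -0.21 to 0.34). Dhcr7, a final reductase, was called only with the guide against the WT-labelled libraries (0.67 ± 0.18, adjusted p = 0.0055), and with quantile scaling also against the knockout-labelled (0.58, 0.014, against 0.35 otherwise). Tm7sf2, a ring reductase, was called in no comparison by limma on the deposited scale with all libraries (0.67, -0.05 and 0.62). Against the knockout-labelled libraries it was called with quantile scaling (1.13, adjusted p = 0.0075), by edgeR (0.76, 0.031) and without Sox2-guide replicate 3 (0.96, 0.018), and without that library also against the WT-labelled libraries (0.91, 0.028). It shares 532 exon bases with Vps51 on the same strand, which rose by 1.02, so its reads may be split.

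**Figure D3:**
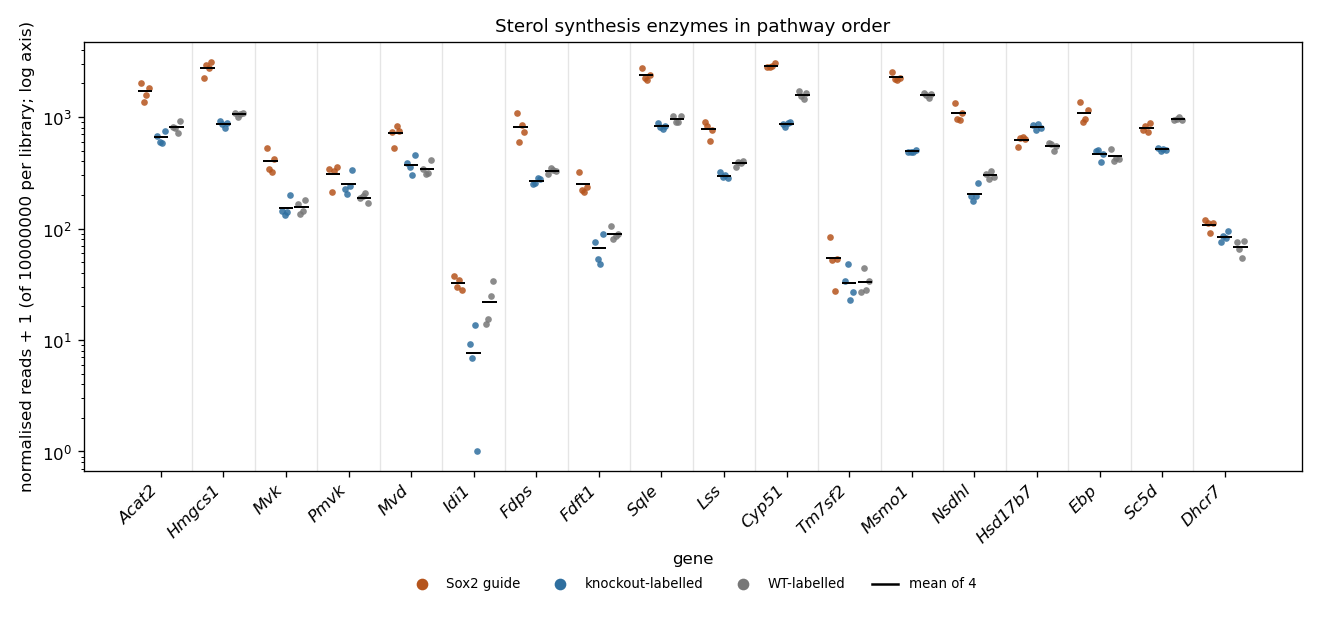
Normalised reads plus 1, on a log axis, of the 18 sterol synthesis enzymes in the order of the pathway; each point is 1 library, colours are the 3 groups and black lines the means of 4. The Sox2-guide points stand above the knockout-labelled ones without overlap for 14 genes called higher, and below them for Hsd17b7.

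All 9 fatty acid genes were higher with the Sox2 guide than in the knockout-labelled libraries, none of them overlapping. Elovl6 (ENSMUSG00000041220, chromosome 3, 129532355 to 129638495, + strand), the elongase of saturated chains, had 1004, 977, 791 and 677 normalised reads with the guide, 283, 257, 225 and 194 in the knockout-labelled and 1026, 1101, 1054 and 1127 in the WT-labelled libraries. The knockout-labelled libraries are low, and the guide libraries lie just under the WT-labelled. The log2 change was 1.84 ± 0.13 (SE, adjusted p = 5.1e-09) with the guide against the knockout-labelled libraries and -2.18 ± 0.13 (adjusted p = 4.0e-10) between knockout-labelled and WT-labelled. The small difference of -0.34 (adjusted p = 0.043) between Sox2-guide and WT-labelled libraries ended without any one of 7 libraries. Those were WT-labelled replicate 1 (-0.36, adjusted p = 0.059), 2 (-0.33, 0.087), 3 (-0.35, 0.069) or 4 (-0.32, 0.095), knockout-labelled replicate 3 (-0.34, 0.052) and Sox2-guide replicate 3 (-0.30, 0.0999) or 4 (-0.23, 0.16). It also ended with no filter on low values (-0.34, 0.057).

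Fasn (ENSMUSG00000025153, chromosome 11, 120805846 to 120824547, - strand), fatty acid synthase, had 3276, 2355, 2953 and 3089.7 with the guide, 923, 799, 908 and 1097 in the knockout-labelled and 1964, 2163, 2095 and 2267 in the WT-labelled libraries. The 3 groups are ordered with no overlap. The log2 changes were 1.64 ± 0.11 (adjusted p = 1.7e-09) with the guide against the knockout-labelled, -1.19 ± 0.11 (adjusted p = 5.9e-08) between knockout-labelled and WT-labelled, and 0.45 ± 0.11 (adjusted p = 0.0024) with the guide against the WT-labelled libraries. Scd1 (ENSMUSG00000037071, chromosome 19, 44394455 to 44407879, - strand), a stearoyl-CoA desaturase that makes oleate, had 2545, 2415, 2657 and 2371 with the guide, 1004, 1073, 1005 and 999.9 in the knockout-labelled and 1435, 1213, 1547 and 1403 in the WT-labelled libraries. Its groups are ordered in the same way without overlap (1.29 ± 0.08, -0.45 ± 0.08 and 0.84 ± 0.08, each called). Scd2, its close relative, averaged 7342 ± 1217, 2399 ± 318 and 5203 ± 279 (SD, n = 4), with 1.61, -1.12 and 0.48 in the same order. Members of the Scd family are similar in sequence, so reads split between them are uncertain.

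Fads1 (ENSMUSG00000010663, chromosome 19, 10182888 to 10196877, + strand), a desaturase of polyunsaturated chains, had 3603, 2606, 2634 and 2919 with the guide, 1738, 1589, 1499 and 1624 in the knockout-labelled and 1377, 1271, 1272 and 1304 in the WT-labelled libraries. Its lowest group is the WT-labelled one, and no groups overlap. It was higher by 0.86 ± 0.10 with the guide than in the knockout-labelled libraries (adjusted p = 9.1e-07) and by 1.16 ± 0.10 than in the WT-labelled (adjusted p = 4.7e-08). Its 0.30 ± 0.10 between knockout-labelled and WT-labelled libraries (adjusted p = 0.010) ended with TMM scaling (0.19, adjusted p = 0.066). The related Fads2 averaged 76.5 ± 24.6, 28.6 ± 8.86 and 26.8 ± 3.65, higher with the guide than in either other group (1.39 and 1.43), with 0.04 between these (interval -0.58 to 0.67).

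Upstream, Acly, which makes cytosolic acetyl-CoA from citrate, averaged 1359 ± 151 with the guide, 658 ± 36.9 in the knockout-labelled and 956 ± 70.9 in the WT-labelled libraries, and Acaca, the carboxylase that makes malonyl-CoA, 665 ± 56.2, 389 ± 24.6 and 551 ± 60.9 (SD, n = 4). Both were higher with the guide than in the knockout-labelled libraries (1.04 and 0.77) and lower in these than in the WT-labelled (-0.54 and -0.50). Between Sox2-guide and WT-labelled libraries Acaca overlapped (0.27, adjusted p = 0.035), and the call ended without WT-labelled replicate 3 (0.23, adjusted p = 0.11) or 4 (0.23, 0.11) and without Sox2-guide replicate 1 (0.25, 0.053), 3 (0.27, 0.062) or 4 (0.24, 0.092). It also ended with TMM scaling (0.18, 0.15), quantile scaling (0.19, 0.14), edgeR (0.19, 0.14), DESeq2 (0.16, 0.29), without mitochondrial genes and Gm42418 (0.21, 0.084), with no filter (0.27, 0.056) and with only the 2 groups in the fit (0.27, 0.056). Acsl3, which activates long-chain fatty acids, averaged 2108 ± 472, 911 ± 56.0 and 1552 ± 79.6, with replicate 1 of the guide at 1427 below the WT-labelled libraries. It was higher by 1.18 with the guide than in the knockout-labelled libraries, and the 0.41 against the WT-labelled (adjusted p = 0.015) ended without Sox2-guide replicate 3 (0.34, 0.056) or 4 (0.33, 0.058), with TMM scaling (0.32, 0.068), with DESeq2 (0.34, 0.059) and without mitochondrial genes and Gm42418 (0.35, 0.050). Acsl3 shares 244 exon bases with Utp14b on the same strand, which rose by 1.03 with the guide, so its values are uncertain.

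**Figure D4:**
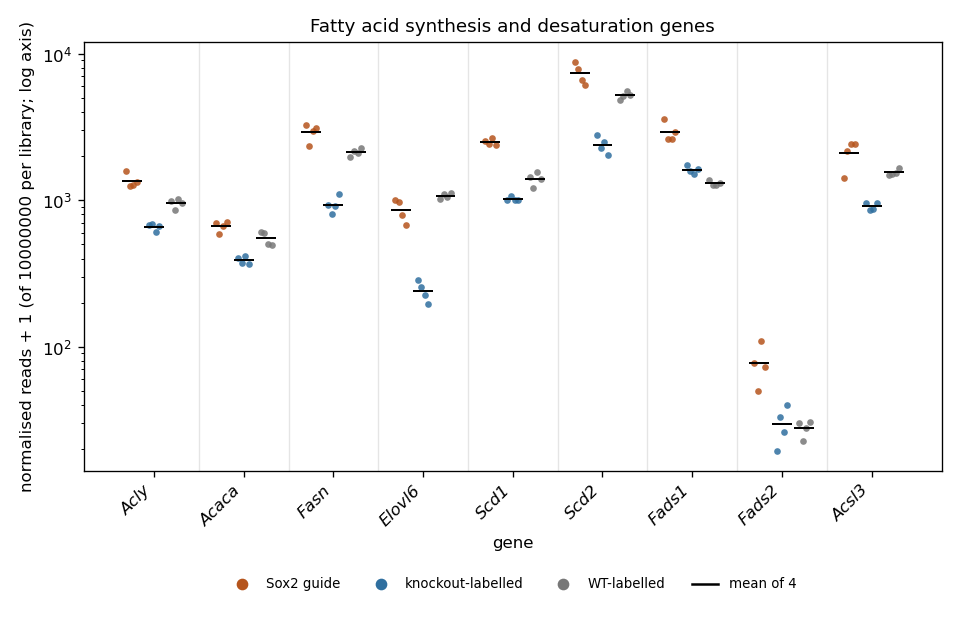
Normalised reads plus 1, on a log axis, of the 9 fatty acid genes; each point is 1 library, colours are the 3 groups and black lines the means of 4. The 4 Sox2-guide points stand above the 4 knockout-labelled points for all 9 genes, and Elovl6, Fasn and Scd2 have knockout-labelled points well below the WT-labelled ones.

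The sensor genes did not move as 1 block. Insig1 (ENSMUSG00000045294, chromosome 5, 28071363 to 28078662, + strand), a retention protein whose gene is itself switched on by SREBP, had 263, 276, 225 and 205 normalised reads with the guide, 73.2, 75.8, 78.2 and 68.0 in the knockout-labelled and 166, 155, 162 and 154 in the WT-labelled libraries. It had the order of the enzymes, with no overlap: 1.69 ± 0.14 (SE, adjusted p = 3.4e-08) with the guide against the knockout-labelled, -1.10 ± 0.14 (adjusted p = 3.9e-06) between knockout-labelled and WT-labelled, and 0.59 ± 0.14 (adjusted p = 0.0024) with the guide against the WT-labelled libraries. Insig2 (ENSMUSG00000003721, chromosome 1, 121304353 to 121332589, - strand), the second retention protein, had 738, 819, 854 and 839.7 with the guide, 996, 851, 961 and 896 in the knockout-labelled and 464, 506, 461 and 516 in the WT-labelled libraries. Both Prkcz-/- labelled groups lie above the WT-labelled libraries and overlap each other. Its change was 0.93 ± 0.09 (adjusted p = 9.2e-08) between knockout-labelled and WT-labelled libraries and 0.74 ± 0.09 (adjusted p = 2.9e-06) with the guide against the WT-labelled. The -0.19 with the guide against the knockout-labelled libraries was not called (adjusted p = 0.074, interval -0.37 to -0.0026), and it was called with quantile scaling (-0.24, 0.025) and without mitochondrial genes and Gm42418 (-0.24, 0.030).

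Srebf2 (ENSMUSG00000022463, chromosome 15, 82147181 to 82205379, + strand), the SREBP of cholesterol genes, had 2036, 1869, 1769 and 1665 with the guide, 1069, 1044, 1023 and 938 in the knockout-labelled and 889.6, 957, 1161 and 1032 in the WT-labelled libraries. All 4 guide libraries are high, and the other groups overlap. It was higher by 0.85 ± 0.09 than in the knockout-labelled (adjusted p = 8.0e-07) and by 0.86 ± 0.09 than in the WT-labelled libraries (adjusted p = 1.1e-06), and the knockout-labelled against WT-labelled change was 0.02 with an interval of -0.18 to 0.22. Srebf1 (ENSMUSG00000020538, chromosome 11, 60199089 to 60222581, - strand), the SREBP gene of fatty acid synthesis and also a target of LXRs, had 175, 176, 135 and 71.6 with the guide, 97.6, 78.7, 84.5 and 25.9 in the knockout-labelled and 166, 224, 201 and 191 in the WT-labelled libraries. The knockout-labelled libraries lie below all WT-labelled ones (-1.58 ± 0.35, adjusted p = 8.1e-04), and the guide libraries overlap both groups. The call with the guide against the knockout-labelled libraries (1.02 ± 0.35, adjusted p = 0.019) ended without knockout-labelled replicate 4 (0.60, adjusted p = 0.060), Sox2-guide replicate 1 (0.88, 0.051) or Sox2-guide replicate 2 (0.88, 0.059), and with array weights (0.53, 0.13). Against the WT-labelled libraries the guide group was not called (-0.56, adjusted p = 0.19), except with array weights (-0.80, 0.033). Srebf1 shares 109 exon bases with Rai1 on the other strand, so its values are uncertain. Rai1 was higher in the knockout-labelled than in the WT-labelled libraries (0.52, adjusted p = 0.0017 by limma), opposite to Srebf1. With the guide against the knockout-labelled libraries Rai1 was not called (-0.21, adjusted p = 0.17). The 3' tags do not tell the 2 protein forms of Srebf1 apart.

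Scap (ENSMUSG00000032485, chromosome 9, 110333288 to 110384950, + strand), the escort protein, had 573, 441, 401 and 405 with the guide, 465, 434, 432 and 401 in the knockout-labelled and 614, 571, 688 and 608 in the WT-labelled libraries. Both Prkcz-/- labelled groups lie low, and only Sox2-guide replicate 1 reaches the WT-labelled range. It was lower in the knockout-labelled than in the WT-labelled libraries (-0.51 ± 0.12, adjusted p = 9.2e-04) and lower with the guide than in the WT-labelled (-0.46 ± 0.12, adjusted p = 0.0034). With the guide against the knockout-labelled libraries its change was 0.06, with an interval of -0.19 to 0.30.

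Of the 6 tested export and transport genes 1, Stard4, was higher with the Sox2 guide than in the knockout-labelled libraries, and 2, Abca1 and Npc1, were lower. The 2 lower are 33.3% of these genes, near the 30.2% of all genes tested, and are no result about the block. The 1 higher is 16.7%, below the 30.5% of all genes tested, in a block of only 6. Abca1 (ENSMUSG00000015243, chromosome 4, 53030787 to 53159895, - strand), the pump that loads cholesterol onto lipoprotein particles, had 9.61, 13.4, 15.0 and 2.47 normalised reads with the Sox2 guide, 236, 251, 200.3 and 172 in the knockout-labelled and 29.2, 61.4, 41.9 and 29.6 in the WT-labelled libraries. That is 16, 319 and 49 reads over the 3 groups, which do not overlap. The log2 change was -4.48 ± 0.40 (SE, adjusted p = 7.4e-08) with the guide against the knockout-labelled libraries, 2.43 ± 0.40 (adjusted p = 5.6e-05) between knockout-labelled and WT-labelled, and -2.05 ± 0.40 (adjusted p = 4.7e-04) with the guide against the WT-labelled. Beside Abca1, Abcg1, the second pump, had 7, 2 and 0 reads in the same order of groups, and the receptor gene Nr1h3 4, 19 and 6, too few to test. Nr1h2, the other LXR, averaged 147 ± 68.1, 166 ± 29.9 and 174 ± 18.4 (SD, n = 4) and was called in no comparison when all libraries weighed the same. Without Sox2-guide replicate 1, at 240.3 the highest of its group, it was lower with the guide than in the knockout-labelled (-0.55, adjusted p = 0.022) and the WT-labelled libraries (-0.62, 0.013), and likewise with array weights on all 12 libraries (-0.60, 0.010, and -0.62, 0.011).

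Npc2 (ENSMUSG00000021242, chromosome 12, 84754562 to 84773152, - strand), the lysosomal carrier that hands cholesterol to NPC1, had 7565, 5715, 7379 and 7214 with the guide, 6814, 6864, 6522 and 7812 in the knockout-labelled and 1942, 1961, 2032 and 2208 in the WT-labelled libraries. The first 2 groups overlap and both lie far above the WT-labelled libraries. The changes against these were 1.77 ± 0.09 (adjusted p = 1.8e-10) with the guide and 1.78 ± 0.09 (adjusted p = 5.7e-11) for the knockout-labelled libraries, with -0.01 between the 2 (interval -0.21 to 0.18), which was -0.21 and called with quantile scaling (0.044). Npc1, the membrane partner, averaged 238 ± 16.8 with the guide, 343 ± 32.5 in the knockout-labelled and 205 ± 35.0 in the WT-labelled libraries. It was lower with the guide than in the knockout-labelled libraries (-0.52 ± 0.13, adjusted p = 0.0032) and higher in these than in the WT-labelled (0.75 ± 0.13, adjusted p = 1.2e-04), and shares 511 exon bases with Rmc1 on the other strand. Mylip, a ubiquitin ligase induced by LXRs that removes lipoprotein receptors, averaged 138 ± 30.4, 153 ± 10.9 and 76.7 ± 19.0 (SD, n = 4). It was higher in both Prkcz-/- labelled groups than in the WT-labelled libraries (0.84 ± 0.20 with the guide and 1.01 ± 0.20), and overlapped between them (-0.17, interval -0.59 to 0.25).

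Stard4 (ENSMUSG00000024378, chromosome 18, 33199355 to 33213862, - strand), a soluble sterol carrier whose gene is switched on by SREBP, had 575, 926, 944 and 906 with the guide, 455, 452, 413 and 437 in the knockout-labelled and 792, 773, 769 and 752 in the WT-labelled libraries. The knockout-labelled libraries are the lowest and overlap neither other group. It was higher with the guide than in the knockout-labelled libraries (0.90 ± 0.13, adjusted p = 1.5e-05) and lower in these than in the WT-labelled (-0.81 ± 0.13, adjusted p = 3.6e-05). Against the WT-labelled libraries Sox2-guide replicate 1 is low and the other 3 are high, so that 0.09 (adjusted p = 0.58) became 0.26 (adjusted p = 0.0056) without that library and 0.22 (0.041) with array weights.

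**Figure D5:**
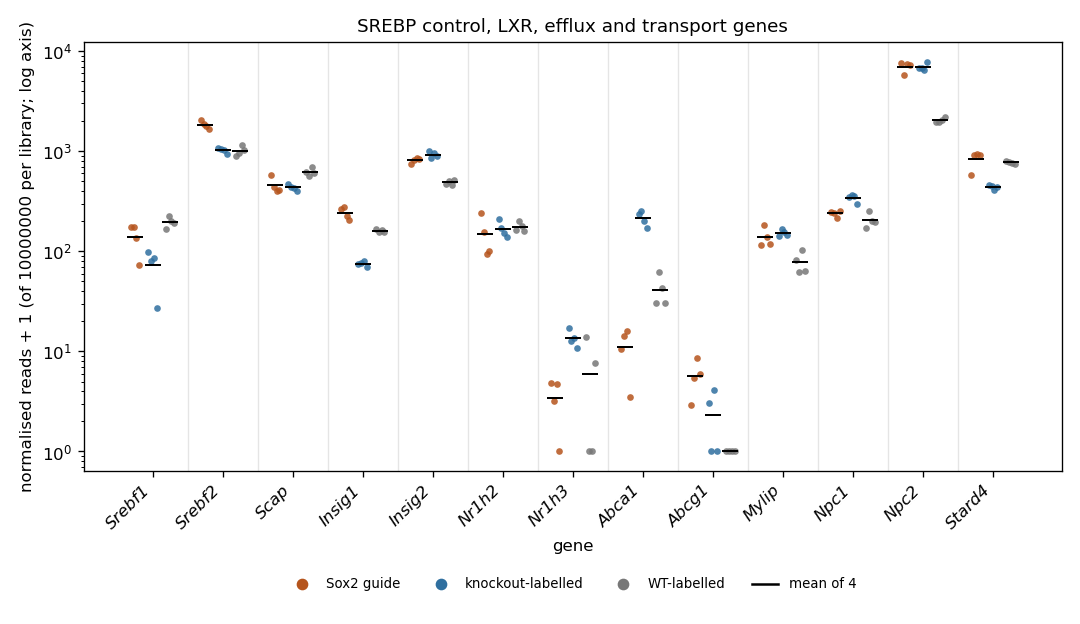
Normalised reads plus 1, on a log axis, of the 5 SREBP control genes and the 8 LXR, efflux and transport genes, Nr1h3 and Abcg1 included; each point is 1 library, colours are the 3 groups and black lines the means of 4. Abca1 is highest in the knockout-labelled and lowest in the Sox2-guide libraries, Npc2 and Insig2 are high in both Prkcz-/- labelled groups, and Insig1 and Stard4 are lowest in the knockout-labelled libraries.

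Beside these pathways, 3 further lists were counted against the background shares given above. Of 12 isoprenoid branch genes, which make dolichol, ubiquinone and prenyl anchors from mevalonate products, 7 were higher and 2 lower with the Sox2 guide than in the knockout-labelled libraries, and 2 were higher and 5 lower in these than in the WT-labelled, where 37.6% and 29.4% of all genes were higher and lower. Pdss1, of the ubiquinone tail, averaged 332.6 ± 20.8 with the guide, 168 ± 14.8 in the knockout-labelled and 301 ± 36.8 in the WT-labelled libraries (0.98 and -0.83), and Nus1, of dolichol synthesis, 953 ± 156, 562 ± 111 and 1330.5 ± 85.3 (0.77 and -1.26). Dhdds, its partner in that enzyme, went against it, at -0.35 and 0.99 in the same 2 comparisons, and Pggt1b, of protein geranylgeranylation, was lower with the guide (-0.65 and -0.67 against the knockout-labelled and WT-labelled libraries).

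Of 11 genes that cut SREBPs or degrade sterol-regulated proteins 4 were higher and 3 lower with the guide than in the knockout-labelled libraries, and 1 higher and 6 lower in these than in the WT-labelled. The first 2 counts are near the background of 30.5% higher and 30.2% lower and are no result about the list. Mbtps2, the site-2 protease that frees SREBPs in the Golgi membrane, averaged 272 ± 38.4, 104 ± 14.3 and 357 ± 22.9 normalised reads in the Sox2-guide, knockout-labelled and WT-labelled libraries (1.38 with the guide against the knockout-labelled, adjusted p = 2.6e-07, and -1.78 between these and the WT-labelled, adjusted p = 8.4e-09). Mbtps1, the site-1 protease, was lower with the guide than in either other group (-0.47 and -0.55). Rnf139, a ubiquitin ligase of the endoplasmic reticulum, was higher in the knockout-labelled than in the WT-labelled libraries (1.13) and lower with the guide than in the knockout-labelled (-0.31).

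Of 17 tested genes of fatty acid supply and elongation 9 were higher and 2 lower with the guide than in the knockout-labelled libraries, and 5 higher and 9 lower in these than in the WT-labelled. Mid1ip1, which promotes polymerisation of acetyl-CoA carboxylase, averaged 1021 ± 138, 262 ± 25.2 and 970.0 ± 27.8 (1.95, adjusted p = 9.9e-11, and -1.89, adjusted p = 9.9e-11). Acot7, a thioesterase, had 1.61 and -1.45 in the same comparisons. Elovl7, an elongase, did the opposite of Elovl6: it averaged 40.8 ± 3.63 with the guide, 231 ± 7.30 in the knockout-labelled and 19.1 ± 5.99 in the WT-labelled libraries (SD, n = 4), a change of -2.48 with the guide against the knockout-labelled and 3.58 between these and the WT-labelled. Acss2, which makes acetyl-CoA from acetate and is known as an SREBP target, was higher in the knockout-labelled than in the WT-labelled libraries (1.89, adjusted p = 2.1e-04) and was not called with the guide against the knockout-labelled (-0.23, adjusted p = 0.59).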

How the data were processed

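Polyadenylated RNA ends of cultured mouse colon fibroblasts were measured in 12 libraries with the QuantSeq 3' FWD kit, single-end reads of 75 bases, per the labels' protocols. The deposited signal values are gene read counts that the authors scaled for depth, so that each column sums to 10000000. The build is GRCm38 per the submitters' processing notes, and the sources used here do not give the aligner, the counter, the use of strand or whether the unique molecular identifiers, optional per the labels, were counted. Low values came in whole steps, so reads could be recovered: 100% of values were whole within 0.01 read, and depth was 2668455 to 5201368 reads in Sox2-guide, 3090282 to 4919557 in knockout-labelled and 2769291 to 3341244 in WT-labelled libraries. Precision and floors given here cover counting error only.

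Members and lists were taken by symbol and were chosen with earlier results of these data known. Genes with a mean of at least 10 (12676 of 23106) were tested with limma 3.58.1 (R 4.3.3, trend) on log2(value + 1), which understates changes of low genes, in 1 model over all 12 libraries, with Benjamini-Hochberg adjustment over all genes tested. Per-library values were printed for the members with the largest called changes without overlap in each role and comparison, at a mean of at least 50, and for the 5 control genes. Of the other lists, up to 2 called genes per direction with the smallest adjusted p could be named. Lpin2 was named outside this rule, as a relative of Lpin1. The alternatives were pseudocounts of 0.5 and 5, other filters, TMM and quantile scaling, removal of mitochondrial genes and Gm42418, a fit of 2 groups, a replicate block, array weights, edgeR 4.0.16 and DESeq2 1.42.0 on recovered reads, and leaving out each library. Coordinates are those of GENCODE release M21 on GRCm38, and promoter windows are from RefSeq on GRCm38.p6. No RefSeq window was used here for Scd1, Fdft1, Npc1, Fdps, Scd2, Sqle, Abcg1, Stard4 and Fads1.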

Additional observations from a re-analysis of the deposited data

Results flagged for a closer look

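In 6 of the 114 groups of 4 libraries, 1 library stood far from the other 3, with a gap to its nearest neighbour whose share of the group's range of log2 values passed Dixon's 95% critical value. Chance gives about 1 in 20 such groups. In the Sox2-guide group the lowest library was replicate 2 for Pmvk (0.8547) and for Npc2 (0.8306), and replicate 1 for Stard4 (0.9174). In the knockout-labelled group replicate 4 was lowest for Srebf1 (0.8367) and Npc1 (0.832), and replicate 2 was highest for Scd1 (0.9342). Leaving out the library concerned ended the call of Srebf1 with the Sox2 guide against the knockout-labelled libraries (0.60, adjusted p = 0.060 by limma). It gave Pmvk a call in the same comparison (0.48, adjusted p = 0.018) and Stard4 a call with the Sox2 guide against the WT-labelled libraries (0.26, adjusted p = 0.0056).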

How the results depend on the processing

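No direction called for a member reversed under the 12 alternatives or the 12 fits without 1 library. The median log2 change of the members between knockout-labelled and WT-labelled libraries was -0.31, against -0.42 with TMM, -0.47 with quantile scaling and -0.40 with DESeq2; TMM and quantile scaling moved the median of all genes there by -0.11 and -0.17. Between Sox2-guide and knockout-labelled libraries the median was 1.04 with a minimum mean of 50, and 5 members were lower with quantile scaling. Between Sox2-guide and WT-labelled libraries the median was 0.58 with TMM and 0.58 with quantile scaling. Of calls over all genes, 57.8% were higher there, against 47.8% with DESeq2, and between knockout-labelled and WT-labelled libraries 56.0%, against 47.9% with quantile scaling. The cause was not tested. Without 1 library, Sox2-guide against knockout-labelled libraries gave 7103 to 7816 calls, a member median of 1.09 to 1.203 (the highest without knockout-labelled replicate 1), 26 to 28 members higher and 3 to 4 lower. Knockout-labelled against WT-labelled gave 8066 to 8982, -0.34 to -0.29, 7 to 8 and 18 to 22, and Sox2-guide against WT-labelled 5991 to 6722, 0.63 to 0.74, 25 to 28 and 3 to 5. Libraries with the same replicate number shared only that number: of the 12 correlations of their deviations, -0.04 to 0.13, 1 was over 0.1. With the replicate block the calls were 7693, 8508 and 6627 in that order of comparisons, and only Fdft1 changed among the members (-0.47, adjusted p = 0.032 by limma, knockout-labelled against WT-labelled). Depth limits Idi1, Abca1, Nr1h3 and Abcg1, which had few reads.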

Other observations

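Genes that use, take up or burn lipid were also measured. Of 18 tested glycerolipid and lipid droplet genes 7 were higher and 2 lower with the Sox2 guide than in the knockout-labelled libraries, and 8 higher and 3 lower in these than in the WT-labelled, by limma at an adjusted p under 0.05. Over all genes tested 30.5% were higher and 30.2% lower in the first comparison and 37.6% and 29.4% in the second, so a count near these shares is no result about a list. Lpin1, a phosphatidate phosphatase, averaged 331 ± 45.5 normalised reads with the guide, 363 ± 29.7 in the knockout-labelled and 78.5 ± 14.4 in the WT-labelled libraries (SD, n = 4). Its relative Lpin2, which the naming rule did not select, went with it, at 481 ± 15.7, 489 ± 38.1 and 309 ± 29.7 in the same order. Lpin3, another relative, went the other way, at 12.2 ± 9.75, 13.2 ± 4.16 and 77.4 ± 13.0, lower in both Prkcz-/- labelled groups than in the WT-labelled libraries. Plin2, a lipid droplet coat protein, averaged 1415 ± 147, 1244 ± 128 and 669.5 ± 59.8, and was higher in both Prkcz-/- labelled groups than in the WT-labelled (1.08 and 0.89 on the log2 scale).

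Of 12 tested genes of lipid uptake, sterol transfer and oxysterols 3 were higher and 6 lower with the Sox2 guide than in the knockout-labelled libraries, and 4 higher and 2 lower in these than in the WT-labelled. Lipa, the lysosomal acid lipase that frees cholesterol from its esters, averaged 644 ± 74.1 with the guide, 1001 ± 79.8 in the knockout-labelled and 336 ± 22.1 in the WT-labelled libraries. Vldlr, a lipoprotein receptor, averaged 94.6 ± 27.5, 243 ± 21.7 and 75.7 ± 23.3, and Gramd1b, a sterol carrier between the plasma membrane and the endoplasmic reticulum, 41.7 ± 7.29, 123 ± 7.55 and 53.2 ± 5.43 (SD, n = 4). Tmem97, a sterol-responsive membrane protein, averaged 894 ± 115, 309 ± 19.3 and 641 ± 24.9, and was higher with the guide than in the knockout-labelled libraries (log2 change 1.52) and lower in these than in the WT-labelled (-1.05).

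Of 11 tested genes of fatty acid oxidation 3 were higher and 2 lower with the Sox2 guide than in the knockout-labelled libraries, and 7 higher and 1 lower in these than in the WT-labelled. The 5 called in the first comparison are below the 60.7% of all genes called there. Cpt1a, which admits fatty acids to mitochondria, averaged 645 ± 56.6 with the guide, 615 ± 36.5 in the knockout-labelled and 430.5 ± 39.5 in the WT-labelled libraries. Acadvl, a dehydrogenase of long chains, averaged 461 ± 89.4, 578 ± 64.7 and 312 ± 17.6 (SD, n = 4).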
